A study of Mus musculus with 6 samples.

Results

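The genes of fatty acid oxidation were followed through ATAC-seq libraries of beige, white and brown adipocytes of the mouse. The 34 members were taken by name and role from the 21938 protein-coding genes of GENCODE release M21 on mm10, and 2 kinds of regions were read for each of them. A promoter peak was a peak with its strongest summit within 1 kb of a start site of the gene, and a further region was any other accessible region within 50 kb of the gene that lay outside every promoter. In all, 418 of the 133274 further regions near protein-coding genes were in reach of a member.

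Beige and white adipocytes were both differentiated from the stromal vascular fraction (SVF) of inguinal fat, the brown ones from the SVF of brown adipose tissue, with 2 libraries a condition. All mice were male wild-type C57BL/6J of 3 to 4 weeks, and cells were collected after 7 days of differentiation. Beige and brown cells received 5 μM dexamethasone, 0.5 mM IBMX and insulin, with 1 nM of the thyroid hormone T3 and 1 μM rosiglitazone, an agonist of the nuclear receptor PPARγ. White cells received 1 μM dexamethasone, 0.5 mM IBMX and insulin, with neither T3 nor rosiglitazone. The labels and the methods give different insulin doses, so none is stated. The fate of the cells and the medium that led to it cannot be told apart in any comparison with white, and the depot of origin differs as well between brown and the other conditions. The study describes the ATAC-seq as biological replicates, 2 a group, without describing the brown libraries, and the sources used here do not say whether these came from separate animals or cultures.

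Fatty acids are activated to acyl-CoA thioesters by the Acsl synthetases, carried into the mitochondrion by the carnitine shuttle and shortened there in a repeating cycle of dehydrogenation, hydration, a further dehydrogenation and thiolytic cleavage. Peroxisomes run a parallel cycle on very long and branched chains. White adipocytes mainly store fatty acids, whereas beige and brown adipocytes burn them to produce heat, and many of the genes involved are known targets of the PPAR receptors, which bind as partners of RXR to direct repeats of a hexamer spaced by a single base (DR1).

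The 6 lists held 109143 to 127490 peak intervals each, of which 17.5% to 20.1% lay at promoters. They hold no read counts, so no counting interval can be given for the height of a peak. The study states read totals for the beige and white libraries, with more mapped reads in white than in beige, and the part of this in the comparisons was not tested. For brown no totals were used here. Height was therefore read as a percentile of fold enrichment within the list of the same library, where 100 is the highest peak. Of the markers used to check the cells, all 8 adipocyte genes had a promoter peak in all 6 libraries, as did 2 of 5 macrophage, 3 of 5 endothelial, 3 of 5 progenitor and 0 of 5 skeletal muscle genes. The macrophage genes Csf1r and Ptprc and the endothelial gene Cdh5 had a promoter peak in none. Of the 8 non-adipocyte markers with a peak in all 6, Pecam1 of endothelial cells and Dpp4 and Cd34 of progenitors were lower in both beige and brown than in white, beside 8.94% of all genes. Cd68 of macrophages and Kdr and Tek of endothelial cells were also lower in beige, though not in brown, so most of the 8 were lower in beige than in white, beside 19.8% of all genes. None was higher in both (all genes 19.1%), although Pdgfra of progenitors and Kdr were higher in brown than in white (34.9%). The adipocyte genes Fabp4, Pparg and Lpl were lower in beige than in white (all genes 19.8%), and Adipoq and Cidec were higher in brown (34.9%). The markers' part in the results was not tested.

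Nearly all oxidation genes were open at their promoters in every condition. All 6 libraries held a promoter peak for 33 of the 34 members, against 61.8% of all protein-coding genes. The exception was Cpt1b, the form of carnitine palmitoyltransferase 1 best known from muscle and brown fat. Its promoter peak lay at percentiles 13.7 and 6.0 in beige and 11.3 and 14.8 in brown, while in white it was absent from replicate 1 and lay at percentile 0.1 in replicate 2. On the authors' scale of -log10 q, where 1.3 is the threshold of the lists, the white peak reached 2.26 and the others 12.7 to 17.8. The Cpt1b promoter thus ranked no higher than percentile 14.8 in any list that held it, and lowest in white. Its summit sequence is shown because it is the only member promoter that a library lacked. The gene lies at chr15:89416405-89425863 of mm10, and the window of 100 bp on either side of the summit covers chr15:89425914-89426114 on the minus strand, that of the gene, with the summit 151 bp before the start site. Capitals mark the only match among the motifs searched, a CCAAT box:

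Cpt1b promoter: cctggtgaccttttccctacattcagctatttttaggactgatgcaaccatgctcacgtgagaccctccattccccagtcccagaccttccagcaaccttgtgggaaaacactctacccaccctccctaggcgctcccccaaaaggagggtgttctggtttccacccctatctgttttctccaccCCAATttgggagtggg

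Most promoter peaks of the remaining members ranked high. In 25 of 33 members the promoter peak lay above percentile 75 in all 6 libraries, which was the case for 60.9% of the genes with a promoter peak in all 6. The median percentile of the members ranged from 86.4 to 91.2 over the libraries and that of all genes from 85.8 to 90.8. By role, the median of the group means was highest in beige and brown for isomerases and reductases, which prepare unsaturated chains for the cycle, at 94.2 and 95.2, and in white for electron transfer genes, at 97.7. It was lowest in beige and brown for activation genes, at 69.0 and 72.9, and in white, with Cpt1b left out, for peroxisomal genes, at 77.8. The range of summit positions over the 6 libraries had a median of 47 bp over the members and of 55 bp over all genes. It was at most 50 bp in 17 of 33 members, beside 47.4% of genes, and reached 744 bp in Acsl1, 711 bp in Hadh, 484 bp in Acadl and 420 bp in Acadm.

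**Figure D1:**
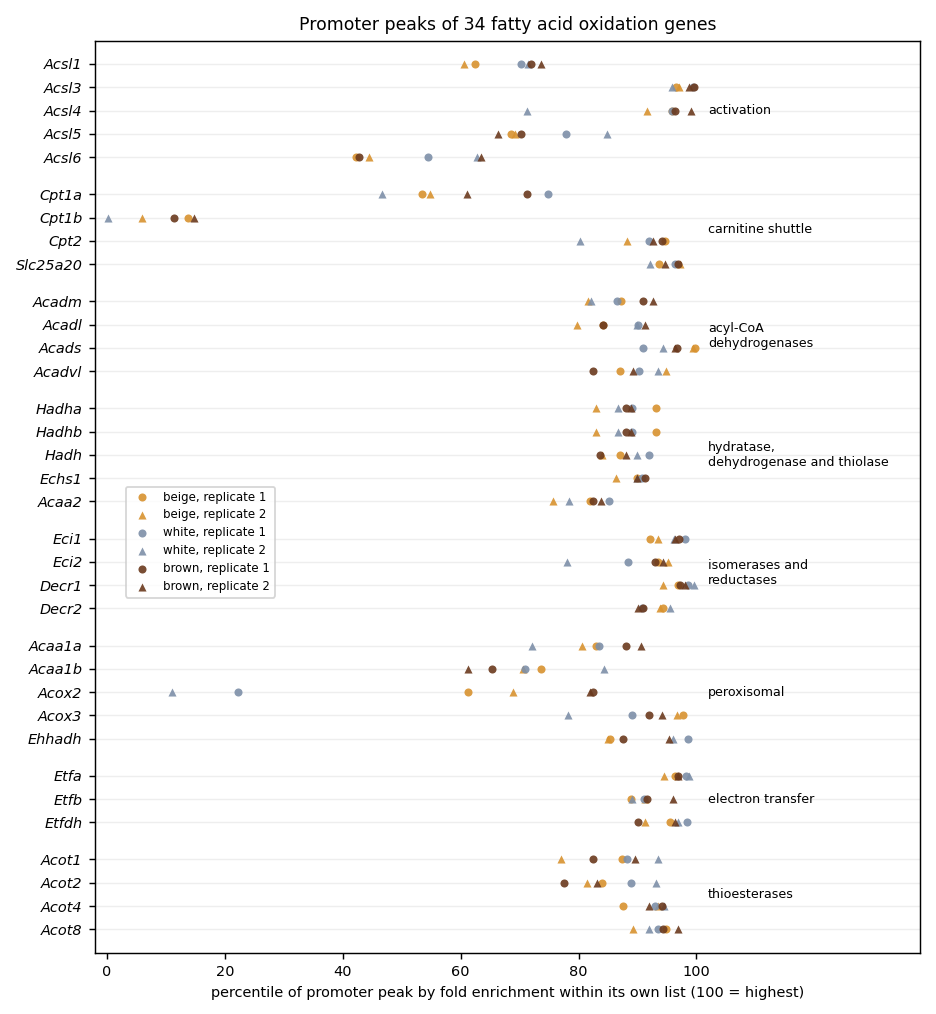
Percentile of the strongest promoter peak within its own list (horizontal axis, 100 is highest) for each of the 34 members, grouped by role; each point is 1 library, coloured by condition and shaped by replicate. Most members sit above 75 in every library, whereas Cpt1b sits at or below 14.8 and Acox2 lies at 11.0 and 22.2 in white against 61.3 to 82.4 in beige and brown.

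Promoters were next compared between conditions. A promoter was called higher or lower where all libraries of one group lay above or below all of the other. With 2 libraries a group no exact permutation test can give a two-sided p below 0.33, and 4 against 2 cannot go below 0.133, so calls were read only beside the share of all genes that met the same rule. Against white, 4 of 33 member promoters were higher in beige, where 28.6% of all genes were, and 12 were lower, where 19.8% were. In brown, 11 were higher than in white beside 34.9% of genes, and 9 were lower beside 14.9%. Brown was above beige in 14 members beside 33.4% of genes, and below it in 4 beside 17.3%. In both beige and brown against white, 4 members were higher beside 19.1% of genes, and 7 were lower beside 8.94%. As a set, the promoters of oxidation genes therefore did not stand higher in beige or brown than in white on this scale. The median difference from white was -2.12 percentile points in beige (all genes 0.69) and 0.55 in brown (all genes 1.70).

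These counts turned on how height was ranked. With peaks ranked by -log10 q instead of fold, 15 members were higher in beige than in white beside 35.8% of genes and 8 were lower beside 17.3%, and the median difference became 1.13 (all genes 1.08). Under the same ranking 10 were higher in both beige and brown than in white beside 22.2% of genes, and 6 were lower beside 12.5%. The white libraries had the lowest median fold enrichment over all their peaks, at 4.12 and 3.99 against 4.42 to 5.04 in the others, and the part of this in the comparison was not tested. Without white replicate 1, the members higher in beige rose from 4 to 11, while the share over all genes rose to 51.5%.

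**Figure D2:**
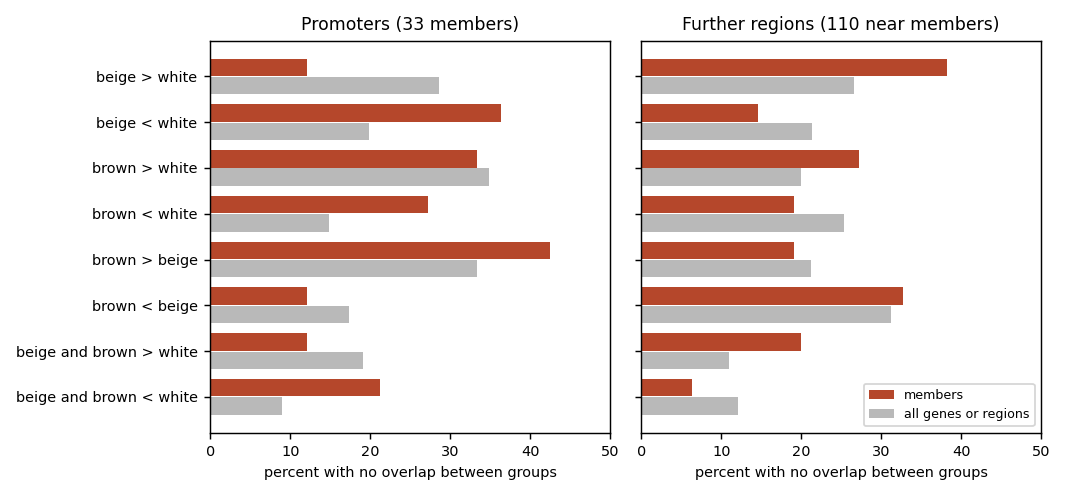
Percent of features in which the libraries of 1 group all lie above or all below those of another, for promoters with a peak in all 6 libraries (left, 33 members) and further regions with a peak in all 6 (right, 110 near members); red bars are members, grey bars all genes or all regions. At promoters the members fall short of all genes in beige above white, whereas at further regions they exceed all regions.

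The widest contrast between conditions lay at a gene of peroxisomal oxidation. Acox2 (chr14:8225511-8259353), the acyl-CoA oxidase that acts on branched chains and bile acid intermediates, had a main promoter peak that reached percentiles 61.3 and 68.8 in beige, 22.2 and 11.0 in white and 82.4 and 81.9 in brown. The group means were 65.0 ± 5.3, 16.6 ± 7.9 and 82.1 ± 0.4 (SD, n = 2 each), and no library of 1 condition overlapped those of another. The mean of beige and brown exceeded that of white by 57.0 percentile points, the highest difference of any member. A further peak inside the gene, 347 bp past the start site, stood at percentiles 30.2 and 39.7 in beige and 57.8 and 47.2 in brown and was found in neither white library. It was singled out after its values had been seen, as were the inner start site of Acsl1 and a promoter peak of white alone at Cpt1a, described further on. Its window is shown because it was absent from white, at chr14:8258385-8258585 on the minus strand, that of the gene. It held none of the motifs searched, so no letter is a capital:

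Acox2, 347 bp past the start: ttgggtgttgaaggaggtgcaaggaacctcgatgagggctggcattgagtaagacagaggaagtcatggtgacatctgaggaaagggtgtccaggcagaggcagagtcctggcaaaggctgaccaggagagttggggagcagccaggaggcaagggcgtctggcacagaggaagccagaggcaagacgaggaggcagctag

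The related oxidase Acox3 stood at 97.7 and 96.7 in beige, 89.1 and 78.2 in white and 91.9 and 94.1 in brown, a difference of 11.5 between both and white, or 6.04 without white replicate 2. The thiolase genes Acaa1a and Acaa1b, which cleave the chain in peroxisomes, lay apart from each other. They are close copies, and whether reads that fit both were kept in peak calling is not given in the sources used here. Acaa1a had 82.9 and 80.6 in beige, 83.5 and 72.1 in white and 88.1 and 90.6 in brown. Acaa1b had 73.7 and 70.6 in beige, 70.9 and 84.3 in white and 65.4 and 61.3 in brown. Acaa1a was thus higher in brown than in white and Acaa1b lower, and for neither did beige and white separate. Ehhadh, the peroxisomal bifunctional enzyme, was lower than in white in both, at 85.3 and 85.0 in beige, 98.6 and 96.0 in white and 87.5 and 95.4 in brown.

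Among the activation genes none was higher in both beige and brown than in white. Acsl5 was lower in both, with 68.6 and 69.3 in beige, 77.8 and 84.8 in white and 70.2 and 66.3 in brown, the lowest difference of all members at -12.7. Acsl6 had 42.2 and 44.5 in beige, 54.4 and 62.7 in white and 42.7 and 63.5 in brown, so that only beige separated from white. Acsl4, which prefers arachidonic acid, had 95.8 and 91.7 in beige, 95.9 and 71.3 in white and 96.4 and 99.0 in brown. Its difference of 12.1 rested on white replicate 2, and without that library it was -0.20. Acsl1 (chr8:46471037-46536051), the main synthetase of adipocytes, was lower in beige (62.5 and 60.6) and higher in brown (72.0 and 73.7) than in white (70.2 and 71.5) at its strongest promoter peak. At a start site inside the Acsl1 gene, a peak was present in beige at 13.3 and 8.7 and in brown at 40.4 and 48.5, and in neither white library.

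In the carnitine shuttle the promoter of Cpt1a (chr19:3322334-3385733), the rate-limiting carnitine palmitoyltransferase of most tissues, varied most between replicates. It lay at 53.4 and 54.8 in beige, 74.8 and 46.7 in white and 71.2 and 61.1 in brown. White therefore spanned all the other values. A weaker Cpt1a promoter peak, 823 bp before the start site, stood in white alone, at 19.2 and 3.9. Cpt2, the partner of Cpt1a on the inner membrane, ranged from 80.2 to 94.6 over the 6 libraries. Slc25a20, the carnitine-acylcarnitine carrier, ranged from 92.1 to 97.2. Of these, Cpt2 was called higher in brown than in white. The 250 bases before the Cpt2 start site are shown because they held the ETS core CCGGAAG. Of the 31 members searched in that stretch, only Cpt2 and Slc25a20 held it, 6.45% beside 9.74% of genes. The sequence is RefSeq's on GRCm38 (mm10), chr4:107923590-107923839 on the minus strand, with capitals for 2 ETS matches and 2 GC boxes (GGGCGG):

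Cpt2 upstream: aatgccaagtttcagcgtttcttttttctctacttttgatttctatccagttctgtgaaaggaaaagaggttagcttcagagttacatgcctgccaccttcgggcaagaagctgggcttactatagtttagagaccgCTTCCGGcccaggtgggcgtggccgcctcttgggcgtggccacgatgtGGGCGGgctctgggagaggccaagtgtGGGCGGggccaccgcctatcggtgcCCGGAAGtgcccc

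The acyl-CoA dehydrogenases, which open each turn of the cycle for chains of a given length, behaved individually. Acads, for short chains, was higher in both beige (99.8 and 99.4) and brown (96.7 and 96.4) than in white (91.0 and 94.4). Acadm, for medium chains, was higher in brown (91.0 and 92.6) than in white (86.5 and 82.1), while beige (87.2 and 81.6) overlapped white. Acadl, for long chains, was lower in beige (84.1 and 79.8) than in white (90.1 and 90.0), with brown at 84.1 and 91.2. Acadvl, for very long chains, was lower in brown (82.5 and 89.3) than in white (90.2 and 93.5), with beige at 87.1 and 94.9. No direction was shared by these 4 genes.

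Hadha and Hadhb encode the subunits of the mitochondrial trifunctional protein, lie head to head on chromosome 5 and shared 1 promoter peak, which stood at 93.1 and 83.0 in beige, 89.1 and 86.7 in white and 88.0 and 88.9 in brown. The 3 conditions overlapped there. Echs1, the short-chain enoyl-CoA hydratase, and Acaa2, the mitochondrial thiolase, were called only as higher in brown than in beige. Hadh, the 3-hydroxyacyl-CoA dehydrogenase, was lower in beige (87.0 and 84.0) and brown (83.7 and 88.1) than in white (92.0 and 89.9). The Hadh summit lay 18 bp and 39 bp past the start site in beige replicate 1 and brown replicate 1 and 688 to 729 bp past it in the other 4 libraries. The second position is shown because it held a DR1 match, GGGTCAAAGGTCA. It covers chr3:131271313-131271513 on the minus strand, that of the gene, and capitals mark the DR1 match and a GC box:

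Hadh, 688 bp past the start: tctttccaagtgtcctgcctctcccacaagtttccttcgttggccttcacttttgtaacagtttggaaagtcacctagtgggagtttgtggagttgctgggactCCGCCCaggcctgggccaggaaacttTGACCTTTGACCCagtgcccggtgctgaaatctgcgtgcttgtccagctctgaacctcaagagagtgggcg

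Eci2, an isomerase for unsaturated chains, was higher in beige (93.4 and 95.2) and brown (93.0 and 94.4) than in white (88.4 and 78.1), a difference of 10.7, or 5.63 without white replicate 2. Decr1, the mitochondrial dienoyl-CoA reductase, was lower in both, although its values spanned only 94.4 to 99.6. Electron transfer genes, which pass electrons from the dehydrogenases to ubiquinone, also stood high throughout. Etfa and Etfdh were lower in both than in white, with differences of -2.31 and -4.36 percentile points. Etfb ranged from 88.9 to 96.1 and was called higher in brown than in white and than in beige. The upstream sequence of Etfa is shown because it held a DR1 match. No other of the 31 members searched had one in the 250 bases before the start site, where 1.75% of genes had one. The Etfa sequence is RefSeq's on GRCm38, chr9:55512244-55512493 on the minus strand, with the DR1 match and 2 CCAAT boxes, 1 on each strand, in capitals:

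Etfa upstream: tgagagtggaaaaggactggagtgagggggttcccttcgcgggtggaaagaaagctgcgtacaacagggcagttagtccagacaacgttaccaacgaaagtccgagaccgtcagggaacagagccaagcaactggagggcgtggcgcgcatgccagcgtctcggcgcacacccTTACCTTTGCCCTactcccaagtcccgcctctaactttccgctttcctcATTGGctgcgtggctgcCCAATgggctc

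Thioesterases, which release free fatty acids from CoA, held no promoter higher in both beige and brown than in white. Acot2, of mitochondria, had 83.9 and 81.5 in beige, 88.9 and 93.1 in white and 77.6 and 83.1 in brown, a difference of -9.44. Its cytosolic neighbour Acot1 was lower in beige alone (87.4 and 77.0, white 88.3 and 93.4), and Acot4 and Acot8 ranged from 87.5 to 96.8. Of these, Acot8 was called higher in brown (94.4 and 96.8) than in white (93.5 and 91.9).

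Regions away from promoters gave another picture. Members had 6 to 23 further regions each, with a median of 13 (all genes 11) or 10.3 per 100 kb of gene and flank (all genes 8.58). Most stood at Hadhb with 23 regions, Hadh with 22 and Acox3 with 20. Hadhb regions held a peak in 14 and 18 cases in beige, 15 and 17 in white and 14 and 15 in brown. For Hadh the numbers were 9 and 12, 10 and 7, and 7 and 9. For Acox3 they were 16 and 15, 16 and 15, and 13 and 11. The conditions thus overlapped in number at Hadhb and Hadh, while at Acox3 both brown libraries held fewer than any beige or white library. Of the 418 regions, 242 lay in introns, 151 between genes, 13 in UTRs and 12 in coding exons, and for 176 a member was the nearest gene.

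The 418 regions were then sorted by the conditions that held them. A peak in both libraries of all conditions was found in 110 (all regions 27.2%). In beige and brown but not white, 11 regions had a peak in all 4 libraries, 2.63% beside 1.41% of all regions, with an exact binomial interval of 1.32% to 4.66%. Beige and white without brown held 5 (all regions 1.24%), and white and brown without beige held 1 (0.240%). Beige alone held 7 (2.21%), white alone 2 (1.27%) and brown alone 7 (0.898%). In the remaining 275 the replicates of a condition differed in presence. The excess of regions held by beige and brown was within counting error of the background, and only 3 of the 11 had a member as their nearest gene. The share held by beige and brown rested on both white libraries: it was 4.88% without white replicate 1 (all regions 3.53%) and 6.40% without white replicate 2 (all regions 3.40%). Intervals of this kind cover counting error only.

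**Figure D3:**
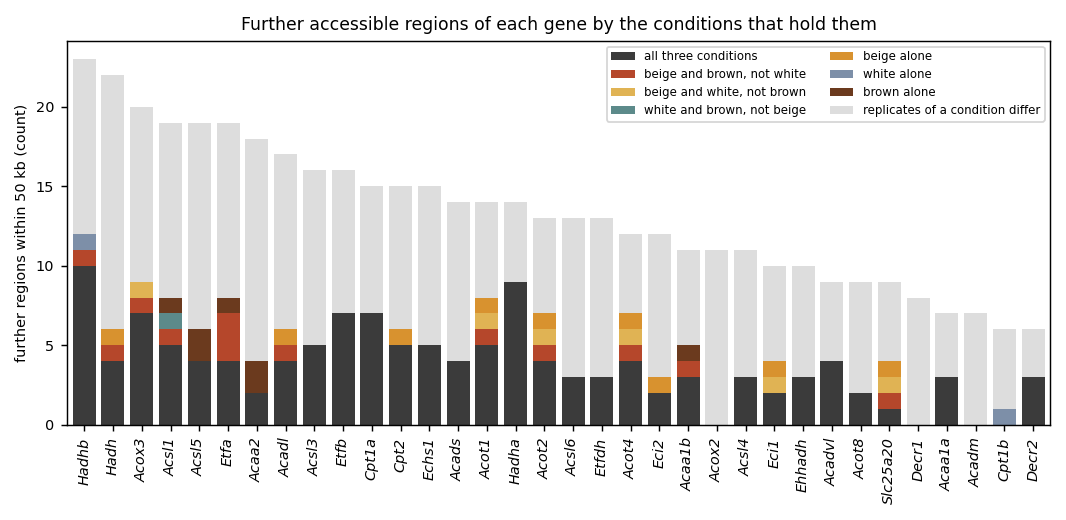
Number of further accessible regions within 50 kb of each member (bars, vertical axis), divided by the conditions in which both libraries held a peak while the others held none; light grey are regions in which the replicates of a condition differed. Regions in reach of several members are drawn at each. Hadhb has 23, Hadh 22 and Acox3 20, and regions of beige and brown without white occur at 11 of the members.

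Among the 3 regions with a member as their nearest gene, one between genes lay 9576 bp before Acadl (chr1:66830839-66863277), at chr1:66872699-66872996. Its percentiles were 33.3 and 7.4 in beige and 62.6 and 44.1 in brown, and white held no peak. A region 11597 bp past the start of Acot2, between Acot2 and Acot1 at chr12:83999279-83999636, stood at 64.6 and 61.0 in beige and 54.7 and 49.9 in brown. Most of its window recurs, nearly unchanged, in a region near Acot1 described further on. Whether reads that fit both copies were kept in peak calling is not given in the sources used here. The Acadl and Acot2 windows are shown because they were absent from white and had a member as their nearest gene. They are given on the plus strand, at chr1:66872753-66872953 and chr12:83999358-83999558. Capitals mark a CCAAT box and a C/EBP match (TTGCNNAA) in the Acadl region, and the Acot2 region held no match:

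Acadl, 9576 bp before the start: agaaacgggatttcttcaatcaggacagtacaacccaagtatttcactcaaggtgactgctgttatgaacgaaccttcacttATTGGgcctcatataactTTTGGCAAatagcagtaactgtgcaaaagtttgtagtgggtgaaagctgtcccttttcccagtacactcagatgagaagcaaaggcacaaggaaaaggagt
Acot2, 11597 bp past the start: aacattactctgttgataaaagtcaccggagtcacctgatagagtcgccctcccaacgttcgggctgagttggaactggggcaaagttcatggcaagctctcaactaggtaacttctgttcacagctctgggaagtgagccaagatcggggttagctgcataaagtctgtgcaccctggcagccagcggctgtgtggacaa

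The remaining region of the 3 lay in an intron of Acsl1, 7232 bp past the nearest start site, at 28.1 and 3.6 in beige and 6.6 and 36.6 in brown. Acsl1 also held the only region of white and brown without beige, in an intron at chr8:46488026-46488649, with 55.4 and 33.9 in white and 3.5 and 15.1 in brown. Among the named regions, 2 stood in beige alone, 20775 bp past the start of Eci2 at 60.3 and 59.6 and near Eci1 at 42.3 and 47.8. The region near Eci1 lay in an intron of Abca3, as did a region of beige and white at 50.4 and 61.4 in beige and 68.6 and 42.6 in white. The other named regions of beige and brown had a neighbour as their nearest gene. They lay next to Selenoi in reach of Hadhb, in Gm47289 near Acaa1b, at 2 places in Tmem266 in reach of Etfa, in Htra3 in reach of Acox3 and in Prkar2a in reach of Slc25a20. Their percentiles ranged from 3.7 to 76.4, and for these the link to the member is distance alone.

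The 110 regions open in all 6 libraries were compared by percentile. In beige, 42 were higher than in white beside 26.6% of all such regions, and 16 were lower beside 21.3%. In brown, 30 were higher than in white beside 20.0%, and 21 were lower beside 25.4%. Brown was above beige in 21 beside 21.2% and below it in 36 beside 31.2%. In both beige and brown, 22 regions (20.0% of the 110) were higher than in white beside 11.0%, and 7 (6.36%) were lower beside 12.1%. The median difference between beige and white was 5.16 percentile points near members and 1.27 over all regions. This direction was opposite to that at the promoters ranked by fold, and it was seen under both rankings: by -log10 q, 34.5% of the regions were higher in beige than in white beside 25.7% of all regions, and 17.3% were lower beside 21.5%. Without white replicate 1, 48.0% were higher in beige beside 44.0%, with a median difference of 2.54 beside 1.39 over all regions. Without white replicate 2, 58.8% were higher in beige than in the remaining white library beside 41.8% of all regions.

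Between beige and white it did not hold for the regions closest to the members. Of the 46 with a member as their nearest gene body, 23.9% were higher in beige than in white beside 26.6% of all regions, and 23.9% were lower beside 21.3%. Against white, brown was higher in 23.9% of these 46 beside 20.0%, and lower in 15.2% beside 25.4%. Both beige and brown were higher than white in 7 of the 46 (15.2%) beside 11.0%, and lower in 5 (10.9%) beside 12.1%. Cpt1b, Acadvl, Echs1 and Acaa1a had no further region of which they were the nearest gene.

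The regions nearest to a member in which beige and brown did not overlap white were singled out after their values had been seen. They numbered 12 of the 46, with the shares given above, at Cpt1a, Acsl1, Acsl4, Acot1, Cpt2, Acox3, Eci2 and Etfa. The widest difference lay in an intron of Cpt1a, 2196 bp past the start site, at chr19:3325038-3325708. It stood at 56.8 and 55.7 in beige, 24.6 and 20.3 in white and 53.3 and 68.4 in brown. A region 10996 bp past the start, also in an intron of Cpt1a, had 80.3 and 87.0, 73.6 and 44.3, and 87.7 and 85.7, so that most of its difference came from white replicate 2. Another in the same gene, 30224 bp past the start, went the other way, with 84.4 and 84.2 in beige, 91.1 and 95.1 in white and 79.4 and 74.7 in brown. At the strongest Cpt1a promoter peak white overlapped both other conditions, while brown lay above beige. The regions within the gene were picked because they separated from white, and they did so in both directions. The window of the widest difference is shown, chr19:3325381-3325581 on the plus strand, with an ETS match and 3 GC boxes, 2 of which overlap, in capitals:

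Cpt1a, 2196 bp past the start: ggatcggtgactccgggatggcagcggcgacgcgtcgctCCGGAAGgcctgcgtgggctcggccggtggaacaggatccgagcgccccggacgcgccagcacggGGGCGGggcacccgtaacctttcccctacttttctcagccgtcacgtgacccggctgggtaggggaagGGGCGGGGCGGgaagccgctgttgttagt

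Acsl1 also held regions in both directions. A region 24622 bp before its start had 79.9 and 79.3 in beige, 55.8 and 53.0 in white and 80.6 and 76.1 in brown. Another, 44533 bp before it, had 52.6 and 57.0 in beige, 71.5 and 60.3 in white and 38.6 and 31.1 in brown. Near Acot1, 11288 bp past the start, the values were 84.8 and 87.3, 35.3 and 78.6, and 84.1 and 90.5, so that most of the difference came from white replicate 1. Its window is the near copy of the Acot2 region that was absent from white. The largest difference in favour of white lay 42508 bp before Acsl4, with 80.8 and 75.1 in white against 43.0 and 55.1 in beige and 45.4 and 69.7 in brown.

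**Figure D4:**
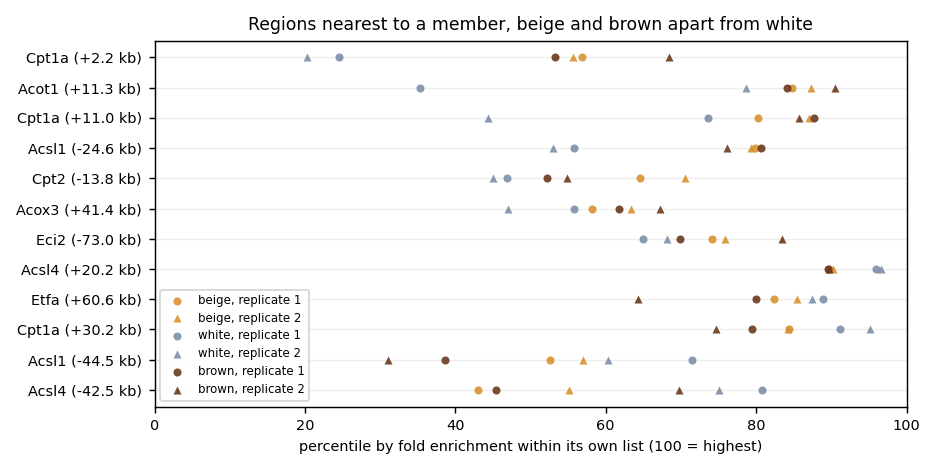
Percentile within the own list (horizontal axis) of the 12 regions that have a member as nearest gene and in which all beige and brown libraries lie above or below both white ones; each point is 1 library, and labels give the gene and the distance of the summit from its nearest start site. The upper 7 are higher in beige and brown and the lower 5 higher in white.

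**Figure D5:**
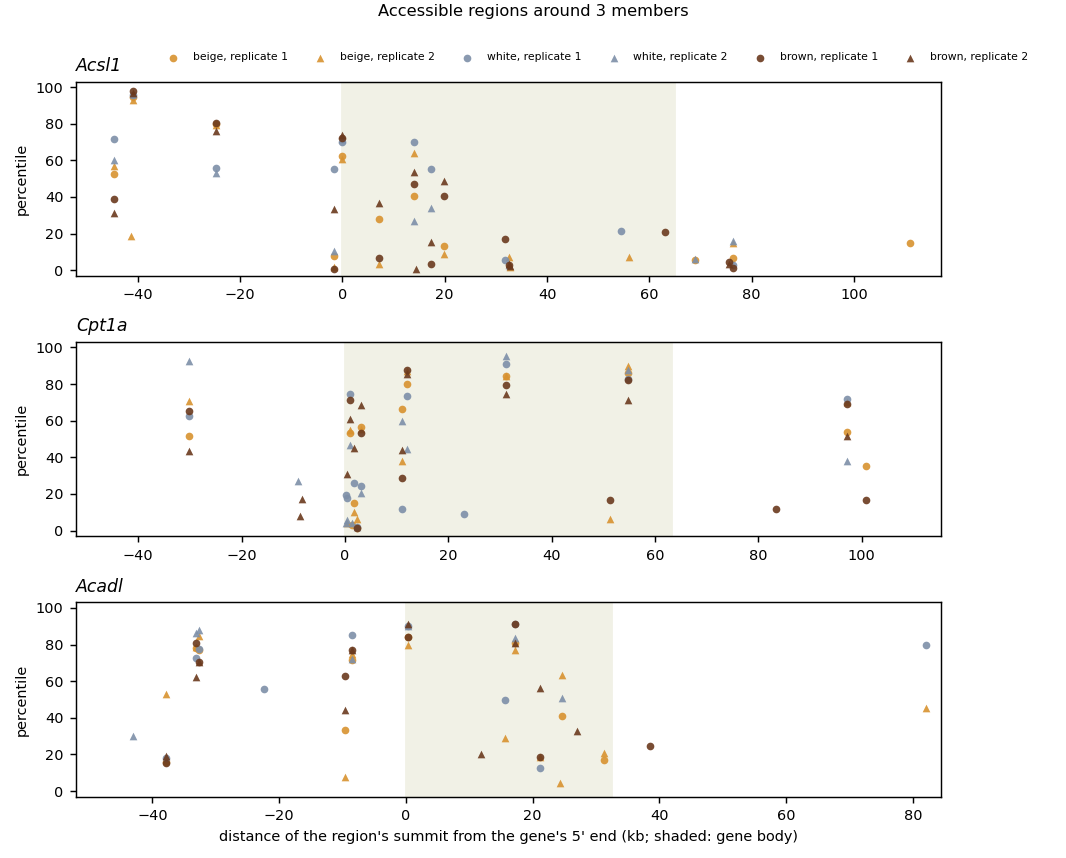
Percentile within the own list (vertical axis) of every accessible region around Acsl1, Cpt1a and Acadl against the distance of its summit from the 5' end of the gene in kb; the gene body is shaded, and each point is 1 library. At the strongest Cpt1a promoter peak white overlaps beige and brown, and brown (71.2 and 61.1) lies above beige (53.4 and 54.8). White lies below beige and brown in the intron region 2196 bp past its nearest start site, which is itself inside the annotated gene.

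The windows were searched for binding motifs on both strands, over 100 bp on either side of each summit. These were DR1 and DR4, 2 copies of AGGTCA in the same direction 1 or 4 bases apart with at most 1 mismatch in each, and the glucocorticoid element, AGAACA and TGTTCT 3 bases apart with the same allowance. The others were searched without mismatch: the ERR element (TNAAGGTCA), C/EBP, ETS, CRE (TGACGTCA), NRF1 (GCGCA and GCGC 1 base apart), EBF (TCCC and GGGA 2 bases apart), the GC box and CCAAT. DR1 and DR4 may overlap the ERR element, with which they share a hexamer, and neighbouring GC boxes overlap each other.

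A DR1 match stood in 9 of the 418 further regions, 2.15% with an exact 95% interval of 0.989% to 4.05%, beside 2.35% of all further regions. None of them was among the 11 member regions held by beige and brown without white. Over all genes 4.20% of the 1883 regions of this class held a match, and 11 regions are too few to compare with that share. Open in all 6 libraries were 3 of the 9 regions with a match. The region next to Eci2, 36 bp outside the annotated gene, stood at 69.2 and 82.9 in beige, 56.8 and 70.4 in white and 31.4 and 83.5 in brown. That in an intron of Hadha had 31.0 and 70.3, 66.3 and 15.5, and 61.8 and 75.1, and that in an intron of Hadhb 58.9 and 46.6, 29.5 and 65.7, and 28.6 and 53.2. In none of these did beige and brown separate from white. A region 39415 bp past the start of Hadh held a peak in beige alone, at 30.1 and 26.4. The remaining 5, at Acsl1 (2 regions), Acaa1a, Acox2 and Cpt2, had peaks in 1 to 4 libraries at percentiles from 2.7 to 46.4. The windows of the 2 genes of the trifunctional protein and that of Hadh in beige are shown because they lie in or beside genes of the inner steps of the mitochondrial cycle. They cover chr5:30135943-30136143, chr5:30170384-30170584 and chr3:131232586-131232786 of the plus strand. Capitals mark DR1 and, in the Hadhb window, an overlapping CCAAT box and C/EBP match:

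Hadha, intron: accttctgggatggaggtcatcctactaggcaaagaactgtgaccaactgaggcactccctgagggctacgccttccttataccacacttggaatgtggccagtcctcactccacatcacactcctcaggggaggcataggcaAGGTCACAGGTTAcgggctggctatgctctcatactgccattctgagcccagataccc
Hadhb, intron: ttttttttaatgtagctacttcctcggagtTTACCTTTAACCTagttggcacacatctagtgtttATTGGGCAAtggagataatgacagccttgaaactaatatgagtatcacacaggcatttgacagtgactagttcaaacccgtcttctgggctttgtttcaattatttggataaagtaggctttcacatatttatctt
Hadh, 39415 bp past the start: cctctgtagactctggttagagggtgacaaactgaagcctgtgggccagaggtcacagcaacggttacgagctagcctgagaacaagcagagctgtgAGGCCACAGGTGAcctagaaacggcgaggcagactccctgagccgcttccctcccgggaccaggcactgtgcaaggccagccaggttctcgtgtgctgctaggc

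At promoters, 3 of 47 member regions held a DR1 match (6.38%, exact 95% interval 1.34% to 17.5%), beside 1.09% of all promoter regions. They were the regions of Acadvl, Hadh and Slc25a20, with the letters AGGTCAGTGGTCA, GGGTCAAAGGTCA and AGGTGAAAGGTCG. The interval lies above the share of all promoter regions, although it rests on 3 regions and covers counting error only. Their percentiles did not share a direction: Hadh was lower in both beige and brown than in white, Acadvl lower in brown, and Slc25a20 had no call. It is also 1 of the 11 motifs searched, and for each of the others the interval held the share of all promoter regions. The ETS core was found in 3 of 47 promoter regions beside 9.77%, and NRF1 in 1 beside 5.31%.

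RefSeq promoter sequences were matched for 31 of the 34 members, all but Cpt1b, Acaa2 and Decr1. Their 250 bases before the start site held a GC box in 21 of 31 members beside 45.4% of genes and a CCAAT box in 16 beside 35.9%. The median GC content was 58.8% (all genes 56.4%), ranging from 41.6% in Acaa1b to 75.6% in Acsl3. NRF1 matches were found in Etfb and Etfdh, and ETS in Cpt2 and Slc25a20 as above.

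Other genes of the pathway were open in the same way. All 27 auxiliary oxidation genes and all 11 regulators had a promoter peak in all 6 libraries, beside 61.8% of all genes. Higher in both beige and brown than in white were 5 of the 38, beside 19.1% of all genes, and 4 were lower, beside 8.94%. These counts are close to or below the background and are no result about the set. Among the regulators, Ppargc1a, a coactivator of mitochondrial genes, stood at 58.5 and 45.9 in beige, 34.4 and 24.9 in white and 67.9 and 43.2 in brown. Ppara, the PPAR receptor best known for driving fatty acid oxidation, had 91.3 and 90.8, 86.3 and 72.5, and 86.3 and 88.6, and brown replicate 1 exceeded white replicate 1 by less than the rounding. Rxrb had 75.3 and 66.7, 62.0 and 50.2, and 64.6 and 74.1. Esrrg was lower, at 62.8 and 52.1 in beige, 70.6 and 82.3 in white and 41.3 and 65.6 in brown.

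Of the auxiliary genes, Acad10 was higher in both, at 96.0 and 95.2 in beige, 83.2 and 91.0 in white and 93.0 and 93.6 in brown. Pdk4, the kinase that turns off pyruvate oxidation in favour of fatty acids, was lower, at 68.4 and 63.5 in beige, 93.9 and 92.1 in white and 79.4 and 78.1 in brown. Hacl1 and Crot, both of peroxisomes, were lower as well, with white at 97.9 to 99.0 and the others at 89.2 to 97.2.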

How the data were processed

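ATAC-seq, which maps open chromatin by transposase insertion, was performed on 2 beige, 2 white and 2 brown adipocyte libraries. According to the methods, reads were trimmed with Trimmomatic 0.36 and aligned to mm10 with BWA 0.7.17, and peaks were called with MACS2 2.2.8 at a q value of 0.05, 1 list per library. These versions are stated for the beige and white libraries, and for brown the labels name BWA, SAMtools and MACS2 without versions. Each deposited list gives the fold enrichment at a summit over the local background, a linear ratio computed by the authors' peak caller. It also gives the -log10 q of the summit, and the lowest deposited -log10 q was close to 1.3 in every list. The lists carry no read counts, so percentiles within a list were compared rather than heights, and a deeper library can list weaker peaks and so raise the percentile of a strong one.

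Lines sharing an interval were reduced to the summit of highest q. Promoters were taken from start sites of GENCODE M21 basic protein-coding transcripts. Intervals of the 6 lists sharing at least 1 bp were merged into regions, assigned to every gene within 50 kb. Members and lists of genes, markers and motifs were chosen with earlier results of these data known. Values in every library are given for members lacking a promoter peak in some library, the 5 highest and 5 lowest differences between beige and brown and white, the 3 members with most further regions, up to 12 regions held by some conditions only, and up to 10 regions with a DR1 match, both by highest -log10 q. Other members' values were added by role. Other genes of the pathway are named where called in both beige and brown against white. The values of 1 of them are not reported here. No test was run between groups.

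The alternatives were another ranking, lists of equal length, a stricter q, other promoter definitions, distances and windows, and leaving out each library. Scripts ran under Python 3.11.15 with numpy 2.4.6, pandas 2.3.3, scipy 1.17.1 and matplotlib 3.10.9 and were tested on simulated data.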

Additional observations from a re-analysis of the deposited data

How the results depend on the processing

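The cause of the changes listed here was not tested, and the small number of libraries and the lack of read counts per peak limit all comparisons. No paired analysis was possible because libraries were compared by values without a test. Of the counts and shares under an alternative, 229 stayed close to the reported value and 68 moved. This was judged without the share over all genes or regions. The 229 include alternatives that could hardly change a count, such as beige against white without a brown library, so the tally overstates stability. Of the single values and medians, 171 stayed, 23 moved and 19 changed sign.

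With peaks ranked by -log10 q, member promoters higher in beige than in white numbered 15 (35.8% of all genes) and those higher in both beige and brown 10 (22.2%). Brown was then above beige in 7 (15.3% of all genes) and below it in 11 (34.3%). The median differences became 1.13 for beige (all genes 1.08) and 0.77 for both against white. For brown against beige the median became -0.69, close to that of all genes at -0.60. With percentiles among promoter intervals only, brown was higher than white in 6 members (18.8% of all genes) and lower in 18 (29.3%), above beige in 8 (21.2%) and below it in 9 (28.7%), both were lower than white in 13 (16.8%), and the median difference of brown from white became -5.81. Leaving out 1 library at a time gave 33 to 34 members with a promoter peak in every library left, 4 to 11 higher and 12 to 19 lower in beige than in white, 11 to 20 higher and 9 to 14 lower in brown than in white, 14 to 20 higher and 4 to 9 lower in brown than in beige, and 4 to 11 higher and 7 to 11 lower in both than in white. The upper count against white came without white replicate 1 for members higher in beige, brown or both, without beige replicate 1 for those lower in beige and without white replicate 2 for those lower in brown. Of all genes, 51.5%, 57.6%, 42.8%, 31.9% and 30.3% were then called, in this order, beside 28.6%, 34.9%, 19.1%, 19.8% and 14.9% with all 6 libraries. With a library left out the rule is easier to meet, so counts could only stay or rise, and the ranges do not measure their stability. The median difference of brown from white ranged from -0.64 without white replicate 2 to 1.58 without white replicate 1, and that of both from -1.49 without white replicate 2 to 0.51 without white replicate 1, with 0.097 without beige replicate 2. The Acsl4 difference ranged from -0.20 without white replicate 2 to 24.4 without white replicate 1.

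Within 20 kb and 100 kb, 224 and 705 further regions were in reach, and 176 had a member as nearest gene. Among these 176, none was held by beige and white without brown or by white alone (0.00% each, all regions 1.24% and 1.27%). Of those open in all 6 libraries, 23.9% were higher and 23.9% lower in beige than in white, beside 26.6% and 21.3% of all regions. Lower in brown than in beige were 21.7%, beside 31.2% of all regions. Within 20 kb the member share was 22.8%, and that of all regions at this distance is not given here. The median difference of regions between brown and white was 0.60 with lists of equal length, 0.29 by -log10 q, 0.91 within 20 kb, 0.25 within 100 kb, and it ranged from -0.60 without beige replicate 1 over 0.50 without white replicate 1 to 1.04 without white replicate 2. Between brown and beige it was 0.36 with lists of equal length, 1.22 within 20 kb and 1.07 with the nearest gene only. Between both and white it ranged from -0.14 without white replicate 1 to 3.61 without white replicate 2 and was -0.71 with the nearest gene only.

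Leaving out 1 library at a time gave 389 to 407 regions. The share held by all conditions was 27.8% to 32.1%, by beige and brown without white 2.70% to 6.40%, by beige and white without brown 1.48% to 4.48%, by white and brown without beige 0.25% to 1.01%, by beige alone 2.06% to 10.8%, by white alone 0.50% to 8.37% and by brown alone 1.72% to 8.96%. Regions higher in beige than in white made up 36.6% to 58.8% and lower ones 15.8% to 28.8%, in brown against white 26.5% to 43.2% and 18.6% to 40.0%, in brown against beige 19.2% to 34.2% and 31.1% to 46.0%, and in both against white 19.8% to 32.8% and 7.02% to 17.6%. With a library left out, the rules for classes and calls are easier to meet for all regions as well. Their share moved too, as given above for regions higher in beige and for those of beige and brown without white. The ranges are therefore no result about the members. A DR1 match was found in 5.02% of member regions with windows more than 2 times as wide and in 0.48% with no mismatch in one of the hexamers. The share of all regions was not computed at these settings, so they do not show whether members would differ from it.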
